A study of Mus musculus with 40 samples.

Results

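The comparison described here is that of YUMM2.1 cells carrying dHLH-Bmal1 and the hairpin shMyh9#2 with YUMM2.1 cells carrying dHLH-Bmal1 and the control hairpin shNC. The libraries were chosen by their labels, and they are 4 of the 40 libraries in the series, 2 with each hairpin. YUMM2.1 is a mouse melanoma line that keeps its own Bmal1, which is listed here under the symbol Arntl. Cells of all 4 libraries carried in addition a lentiviral Bmal1 from which the domain that binds DNA was removed, so the shNC cells are not unmodified YUMM2.1 cells. The hairpins were delivered by lentivirus and held by puromycin selection, and each group is a pool of selected cells rather than a clone. RNA was read by QuantSeq, which sequences the 3′ end of polyadenylated transcripts. The same hairpin was also put into YUMM2.1 cells with an empty vector (EV) and with full-length Bmal1 (WT), and a different hairpin, shMyh9#4, into all 3 populations, so that the 18 libraries of 9 groups form 1 hairpin experiment. The study describes libraries of this experiment, dHLH shNC among them, as biological duplicates, without naming dHLH shMyh9#2 there. The labels do not say whether the libraries of a group came from separate cultures. The p-values thus measure the spread between libraries of a group, part of which may be technical. That spread was estimated over the 18 libraries together and may be smaller than the spread within the dHLH shMyh9#2 pair.

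Myh9 encodes the heavy chain of non-muscle myosin IIA, the motor that pulls on actin filaments to give cells their cortical tension and their stress fibers. The balance of monomeric and filamentous actin in turn sets how much of the MRTF coactivators reaches the nucleus, where they switch on genes with SRF. Melanoma cells move between a melanocytic state, marked by Sox10, and a mesenchymal state, marked by Sox9 and matrix genes.

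The library totals were 14718654 and 6347481 counts for dHLH shNC and 4918817 and 14699820 counts for dHLH shMyh9#2, against 3643332 to 17485144 over the hairpin experiment. The shMyh9#2 libraries were less alike than the shNC libraries. A chi-square of the counts, divided by its degrees of freedom, was 15.5 between the shMyh9#2 libraries, the highest of the 9 pairs of the hairpin experiment, and 3.84 between the shNC libraries, the lowest. The second shMyh9#2 library had a correlation of 0.97494 and 0.96883 with the shNC libraries and 0.96037 with the first shMyh9#2 library. That first library had 0.96188 and 0.95777 with the shNC libraries, which had 0.97698 with each other. By this correlation the libraries did not group by hairpin, and the cause was not tested. Gm42418, a gene that overlaps a ribosomal RNA repeat, took 3.60% and 2.55% of the counts in the shMyh9#2 libraries and 2.55% and 2.64% in the shNC libraries. Its part in the results was not tested. Of the 7 melanocytic markers, Sox10 had 66 to 327 counts and Mitf 107 to 272 counts in each of the 4 libraries, while Tyrp1 and Mlana were at 0 in all 4, and Tyr, Dct and Pmel had at most 4 counts in any library. The pigment markers of the melanocyte lineage were thus near or at 0 in these cells. The 7 immune markers summed to 0.204 and 0.473 CPM with shNC and 0.610 and 2.38 CPM with shMyh9#2, and 27 of the counts in the second shMyh9#2 library were Lyz2. The 4 endothelial markers summed to 14.3 to 16.1 CPM with shNC and 13.7 to 14.0 CPM with shMyh9#2, the 4 keratinocyte markers to 1.418 to 1.6985 and 0.610 to 2.04 CPM, and the 4 fibroblast markers to 2.31 to 3.47 and 3.33 to 4.88 CPM. CPM stands for counts scaled to a common library size.

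The question put to these libraries is what happens to transcripts when the heavy chain is lowered in cells that already carry dHLH-Bmal1. Myh9 (ENSMUSG00000022443, mm10 chromosome 15, 77760587 to 77842175, minus strand) was at 881 and 859 CPM, after TMM scaling, in the dHLH shNC libraries and at 283 and 256 CPM in the dHLH shMyh9#2 libraries. The groups did not overlap, as for 39.1% of the 14848 genes tested, and 31.0% of the shNC mean remained. The log2 fold change was -1.69 (standard error 0.097), with an adjusted p of 2.54e-08 from the quasi-likelihood F test of edgeR, adjusted after Benjamini and Hochberg, which is the test behind every adjusted p below. In EV cells Myh9 went from 682 and 645 CPM with shNC to 223 and 241 CPM with shMyh9#2, and in WT cells from 969 and 919 to 226 and 233 CPM. The level left by the hairpin was thus 223 to 283 CPM in the 6 libraries that carry it. The change in dHLH cells differed from that in EV cells by -0.18 (95% interval -0.46 to 0.10, adjusted p = 0.54) and from that in WT cells by 0.34 (0.065 to 0.62, adjusted p = 0.49). With shMyh9#4 the dHLH cells kept 669 and 630 CPM, or 74.7% of the shNC mean. Myh9 overlaps the small gene Gm22107 on the same strand.

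**Figure D1:**
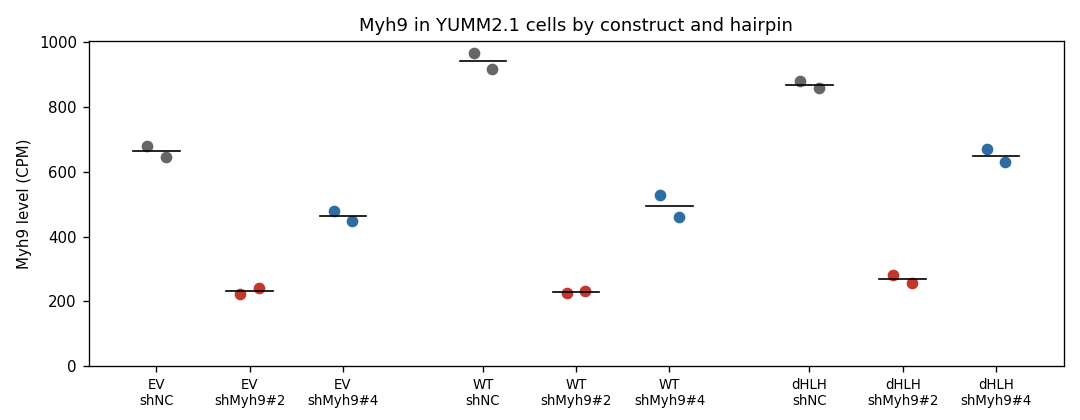
Myh9 level in CPM (vertical axis, from 0) in each of the 18 libraries of the hairpin experiment, by construct (EV, WT, dHLH) and hairpin, with a point per library and a line at the mean of the 2 libraries. In dHLH cells the shMyh9#2 libraries sit at 283 and 256 CPM, below the shMyh9#4 libraries at 669 and 630 and the shNC libraries at 881 and 859.

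The remaining parts of the motor gave no call. Myh10, the heavy chain of non-muscle myosin IIB, was at 84.8 and 97.7 CPM with shNC and 78.6 and 79.7 CPM with shMyh9#2, a log2 fold change of -0.20 (95% interval -0.50 to 0.10, adjusted p = 0.70). Of the 18 tested genes on a list of myosin II and its regulators, Myh9 was the only one that passed the threshold, and the list's median log2 fold change was 0.017 beside -0.00024 over all genes tested. Mylk, the kinase that phosphorylates the regulatory light chain, stood at 22.3 and 24.5 CPM with shNC and 52.1 and 33.6 CPM with shMyh9#2 without passing it (adjusted p = 0.11). Arntl itself was at 48.0 and 36.7 CPM with shNC and 43.4 and 52.8 CPM with shMyh9#2, where the libraries of the groups overlapped (log2 fold change 0.18, standard error 0.17, adjusted p = 0.79). EV shNC cells had 30.4 and 26.0 CPM of Arntl. Whether the Arntl counts in dHLH cells come from the cells' own gene, the added dHLH-Bmal1 or both was not tested. Arntl overlaps Gm45355 on the opposite strand, and the strand setting of the counting is not given in the sources used here.

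Of 14848 genes tested in the dHLH cells, 83 changed at an adjusted p under 0.05, which is 0.559% of the genes. In the shMyh9#2 libraries 44 were higher (0.296%) and 39 lower (0.263%). Among the largest changes, Ptges, Ccl5, Smoc2 and Tnc rose, and Fmn1, Sema3d, Inhbb and Jag1 fell. The median size of the change among the 83 genes was 0.86 on the log2 scale, 30 of them changed by at least 1 (13 higher, 17 lower), 79 are protein-coding, and 46 overlap another annotated gene. The count depended on which libraries entered the fit. When 1 library was left out it was 12 without either shNC library, 27 without the first shMyh9#2 library and 29 without the second, and when the 4 libraries were fitted on their own, Myh9 was the only call. The 8 genes called without each of the 4 libraries in turn were Myh9, Ecel1, Tnc, Ptgs1, Fstl1, Ptchd1, Lrrc17 and Gm26909, the last 5 of which are named here after their values were seen. At an unadjusted p under 0.05 there were 1515 genes, and DESeq2 called 154.

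**Figure D2:**
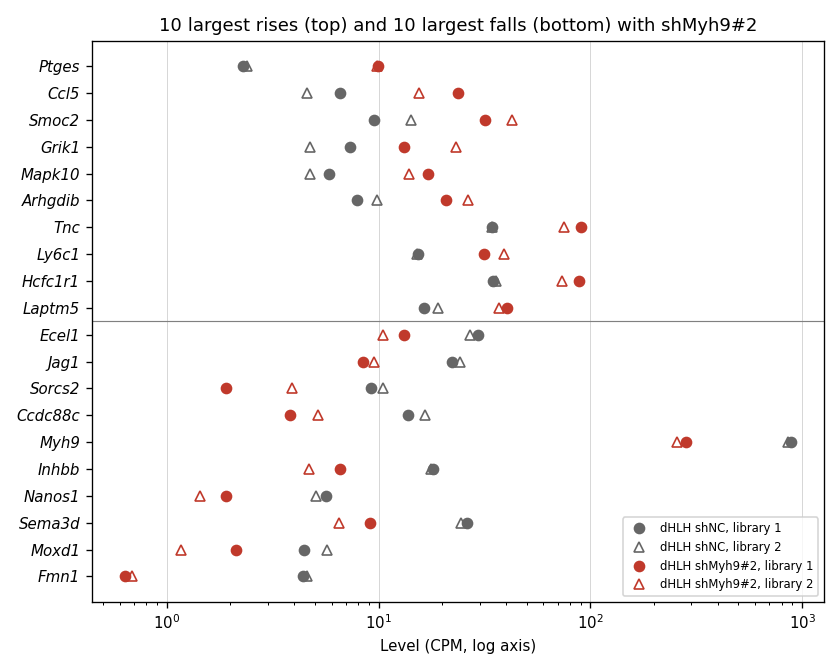
Level in CPM (horizontal log axis) of the 10 genes with the largest rise and the 10 with the largest fall in dHLH cells, for the 2 shNC libraries (grey) and the 2 shMyh9#2 libraries (red). The groups do not overlap for any of the 20 genes, which the rule that chose them required, and Fmn1 shows the widest gap, from 4.38 and 4.61 to 0.636 and 0.684 CPM.

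Among the signals that cells send out, Ptges, a prostaglandin E synthase, was at 2.29 and 2.38 CPM with shNC and 9.96 and 9.85 CPM with shMyh9#2 (log2 fold change 2.08, standard error 0.43, adjusted p = 0.035). Both shMyh9#2 libraries lay above both shNC libraries at a low level throughout. Ptgs1, the cyclooxygenase that makes the precursor of the prostaglandins, moved the other way, from 75.1 and 85.8 CPM to 37.7 and 37.9 CPM (log2 fold change -1.09, adjusted p = 0.00038). Ccl5, a chemokine that draws T cells, rose from 6.60 and 4.61 CPM to 23.7 and 15.5 CPM (log2 fold change 1.73, adjusted p = 0.018). It was the only call among 22 tested secreted cytokines and growth factors, whose median was -0.090. Inhbb, a subunit of activin and inhibin, fell from 18.1 and 17.6 CPM to 6.57 and 4.72 CPM. Sema3d, a secreted guidance protein, fell from 26.2 and 24.6 CPM to 9.11 and 6.50 CPM. Jag1, a ligand of Notch receptors, fell from 22.2 and 24.3 CPM to 8.48 and 9.50 CPM. For these 3 genes the log2 fold changes were -1.701, -1.75 and -1.35, with adjusted p of 0.018, 0.0090 and 0.0043. Sema3d and Ptges overlap other genes, as do Tnc, Smoc2, Timp3, Ccdc88c, Sorcs2, Mapk10, Hcfc1r1, Tcf7l2 and Slc2a3 among the genes below.

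Matrix genes moved in both directions. On the list of matrix proteins, proteases and inhibitors, 3 of 26 tested members rose and 2 fell, and the list's median was 0.038. Tnc, the matrix glycoprotein tenascin C (chromosome 4, 63959785 to 64047015), rose from 34.4 and 34.2 CPM to 90.7 and 74.8 CPM (log2 fold change 1.26, standard error 0.15, adjusted p = 0.00038). Bgn, the proteoglycan biglycan, rose from 346 and 345 CPM to 715 and 566 CPM (log2 fold change 0.89, adjusted p = 0.0074). The third was Lrrc17, a secreted leucine-rich repeat protein and the most abundant transcript of the shMyh9#2 libraries, at 23544 and 26421 CPM with shNC and 44095 and 41915 CPM with shMyh9#2 (log2 fold change 0.78, adjusted p = 0.0011). It took 2.37% and 2.62% of all counts with shNC and 4.23% and 4.17% with shMyh9#2. In YUMM2.1 dHLH libraries without a hairpin, outside the hairpin experiment, Lrrc17 took 3.93% and 3.23%. Timp3, an inhibitor of metalloproteinases, fell from 370 and 399 CPM to 237 and 227 CPM (log2 fold change -0.73, adjusted p = 0.0021), and Adamts1, a secreted metalloproteinase, fell from 94.7 and 97.2 CPM to 56.2 and 61.3 CPM (log2 fold change -0.70, adjusted p = 0.019). Smoc2, a calcium-binding matricellular protein on no list, rose from 9.50 and 14.3 CPM to 31.8 and 42.8 CPM (log2 fold change 1.69, adjusted p = 0.018). Of 21 tested integrins and laminins, Lama4, a laminin chain, was the 1 call, at 32.3 and 35.4 CPM with shNC and 49.4 and 48.1 CPM with shMyh9#2, and the list's median was 0.034. Collagens and their processing enzymes gave no call among 28 tested, with a median of 0.067. The member with the smallest p, Col1a1, was at 193 and 177 CPM with shNC and 234 and 248 CPM with shMyh9#2 (adjusted p = 0.17).

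The largest fall among the called genes was that of an actin regulator. Fmn1, a formin that nucleates actin filaments, was at 4.38 and 4.61 CPM with shNC and 0.636 and 0.684 CPM with shMyh9#2 (log2 fold change -2.71, standard error 0.39, adjusted p = 0.0027). Its level was low and it overlaps 7 other genes, 2 of them on its own strand. Arhgdib rose from 7.95 and 9.85 CPM to 20.8 and 26.4 CPM (log2 fold change 1.43, adjusted p = 0.041), and it overlaps Pde6h on the opposite strand. Dbn1, the actin-binding protein drebrin, fell from 32.7 and 35.1 CPM to 16.7 and 22.4 CPM, and Raph1, the lamellipodin of the cell's leading edge, rose from 205 and 225 CPM to 309 and 304 CPM. These last 2 genes were named after their values were seen. Of 48 tested members of the actin cytoskeleton and focal adhesion list, none passed the threshold by edgeR, and the median was -0.0039. Ptk2, the focal adhesion kinase, had the smallest p there, with 41.6 and 36.2 CPM against 51.5 and 52.4 CPM (adjusted p = 0.21).

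Of 28 tested MRTF-SRF targets, the 1 call was Myh9, which is itself on that list. Their median was -0.092, and 8 of the 28 were above 0. Srf was at 57.7 and 58.3 CPM with shNC and 33.1 and 45.1 CPM with shMyh9#2 (adjusted p = 0.27). Its groups did not overlap, which held for 39.1% of all genes tested. None of the 14 tested AP-1 and ATF subunits passed the threshold (median -0.020). Junb, with the smallest p among them, was at 42.9 and 48.8 CPM with shNC and 26.1 and 31.9 CPM with shMyh9#2 (adjusted p = 0.18), and Jun was at 148 and 139 CPM with shNC and 138 and 147 CPM with shMyh9#2. The YAP-TAZ-TEAD list gave no call among 19 tested (median -0.027), and its member with the smallest p, Ankrd1, was at 73.0 and 73.2 CPM with shNC and 51.1 and 56.8 CPM with shMyh9#2 (adjusted p = 0.22).

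The genes that mark melanoma cell states changed at Sox10 and not at Sox9. Sox10 (chromosome 15, 79154908 to 79165240) was at 22.0 and 25.6 CPM with shNC and 14.0 and 11.9 CPM with shMyh9#2, a log2 fold change of -0.90 (standard error 0.13, adjusted p = 0.0030). That change ran from -0.99 to -0.76 with 1 library left out. Sox10 is not among the genes that stayed called without each library in turn. It also did not pass the threshold with only the libraries compared. Sox9 (chromosome 11, 112782224 to 112787760) was at 323 and 326 CPM with shNC and 362 and 320 CPM with shMyh9#2, so the groups overlapped, and its log2 fold change was 0.070 (95% interval -0.15 to 0.29, adjusted p = 0.89). In EV cells Sox9 was at 115 and 111 CPM with shNC and rose to 290 and 293 CPM with shMyh9#2 (log2 fold change 1.37, adjusted p = 4.83e-07). The change in dHLH cells was lower than that in EV cells by 1.30 on the log2 scale (standard error 0.15, adjusted p = 7.27e-05). The dHLH shNC libraries thus already had more Sox9 than the EV libraries with shMyh9#2. For Sox10 the difference from EV cells was -0.067 (adjusted p = 0.90), at a starting level of 320 and 324 CPM in EV shNC cells. With shMyh9#4, Sox10 was at 45.3 and 44.1 CPM in dHLH cells, above the shNC libraries. Gpnmb, a melanosomal and lysosomal glycoprotein, rose from 93.7 and 90.9 CPM to 137 and 123 CPM (log2 fold change 0.49, adjusted p = 0.037), and with Sox10 it made the 2 calls among 10 tested melanocytic genes, whose median was 0.23. Among 30 tested genes of the mesenchymal melanoma state the 1 call was Tnc, and the median was -0.028. Neural crest genes gave no call among 14 (median -0.081), and Sox5 had the smallest p there (5.32 and 6.20 CPM with shNC, 10.2 and 8.75 CPM with shMyh9#2, adjusted p = 0.29).

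Signalling genes among the largest falls included Ccdc88c, a partner of Dishevelled, from 13.8 and 16.5 CPM to 3.81 and 5.20 CPM (log2 fold change -1.69, adjusted p = 0.0030). Nanos1, an RNA-binding repressor of translation, fell from 5.66 and 5.08 CPM to 1.91 and 1.44 CPM. Sorcs2, a sorting receptor, fell from 9.16 and 10.5 CPM to 1.91 and 3.90 CPM. Moxd1, a copper-dependent monooxygenase, fell from 4.45 and 5.72 CPM to 2.12 and 1.16 CPM. The levels of these 3 genes were low, and their log2 fold changes of -1.75, -1.60 and -1.77 had adjusted p of 0.028, 0.045 and 0.029. For Sorcs2 the log2 fold change was -2.35 without the second shMyh9#2 library and -1.31 without the first. Sorcs2, like most of the 83 called genes, is not among those that stayed called without each library in turn. Ecel1, a membrane metalloprotease, fell from 29.4 and 27.2 CPM to 13.1 and 10.5 CPM, with a small error for its size (log2 fold change -1.31, standard error 0.13, adjusted p = 0.00011). The Wnt and beta-catenin list had 1 call among 15 tested, Tcf7l2, a DNA-binding partner of beta-catenin, which fell from 80.7 and 74.0 CPM to 44.5 and 54.1 CPM (log2 fold change -0.64, adjusted p = 0.018). Its median of -0.33 was the lowest of the lists with at least 10 tested members, and 5 of the 15 were above 0. Tle4, a corepressor that binds TCF factors and is on no list, fell from 25.8 and 17.95 CPM to 8.69 and 10.1 CPM, and it was named after its values were seen. The TGF-beta and BMP list had no call among 26 tested (median -0.19), and Inhba had the smallest p (61.6 and 64.3 CPM with shNC, 45.3 and 42.4 CPM with shMyh9#2, adjusted p = 0.062).

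The other 5 of the 10 largest rises were Grik1, Mapk10, Ly6c1, Laptm5 and Hcfc1r1. Grik1, a subunit of kainate glutamate receptors, rose from 7.34 and 4.77 CPM to 13.1 and 23.1 CPM, and Mapk10, the JNK isoform typical of neurons, from 5.86 and 4.77 CPM to 17.2 and 13.9 CPM. Ly6c1, a surface protein with near-identical copies in its family, went from 15.4 and 15.3 CPM to 31.6 and 39.1 CPM. Laptm5, a lysosomal membrane protein, went from 16.3 and 19.1 CPM to 40.5 and 37.1 CPM, and Hcfc1r1, a regulator of the cofactor HCFC1, from 34.6 and 35.9 CPM to 88.6 and 73.6 CPM. The log2 fold changes of these 5 genes ran from 1.14 for Laptm5 to 1.57 for Grik1, and their adjusted p from 0.0021 for Hcfc1r1 to 0.033 for Grik1. Slc2a3, a glucose transporter, was the 1 call among 35 tested genes of hypoxia and glycolysis, with 83.8 and 89.8 CPM with shNC and 140 and 149 CPM with shMyh9#2 (log2 fold change 0.74, adjusted p = 0.041, list median 0.067).

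In all, 10 of the 31 lists held a called gene, and 12 of the 83 called genes were on a list. Interferon-stimulated genes had no call among 23 tested, with 17 above 0 and a median of 0.41 beside 0.21 in EV cells and 0.45 in WT cells. Isg15, a ubiquitin-like protein of that response, was at 7.28 and 7.15 CPM with shNC and 13.1 and 14.0 CPM with shMyh9#2 (adjusted p = 0.079). Ifitm3, an interferon-induced membrane protein that is not on the list, rose from 180 and 179 CPM to 314 and 261 CPM, and it was named after its values were seen. The circadian clock list had no call among 20 (median 0.18), and Dbp, a clock output factor, had the smallest p at 10.4 and 10.5 CPM with shNC and 21.4 and 16.3 CPM with shMyh9#2 (adjusted p = 0.18). No member passed among 32 cell cycle genes (median 0.047), 19 p53 targets (0.037), 22 ATF4 targets (0.056), 19 ER chaperones (0.044), 26 sterol and fatty acid genes (0.089), 21 NRF2 targets and metallothioneins (0.11), 16 MAPK feedback genes (0.19), 19 immediate early genes (-0.039) and 14 genes of MHC class I presentation (-0.0045). The lysosome and autophagy list had 1 call among 27, Gpnmb, and a median of 0.078. The immune, endothelial, keratinocyte and fibroblast marker lists had 1, 2, 1 and 1 tested members and no call. A count of 0 here is edgeR's at an adjusted p under 0.05, and no list was tested as a set. Over all genes tested 0.559% were called, so a count of 0 in a list of this size, here or above, is near that share. It is no result about the list. The share of all tested genes that are on a list was not computed, so the 12 of 83 is a description only.

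**Figure D3:**
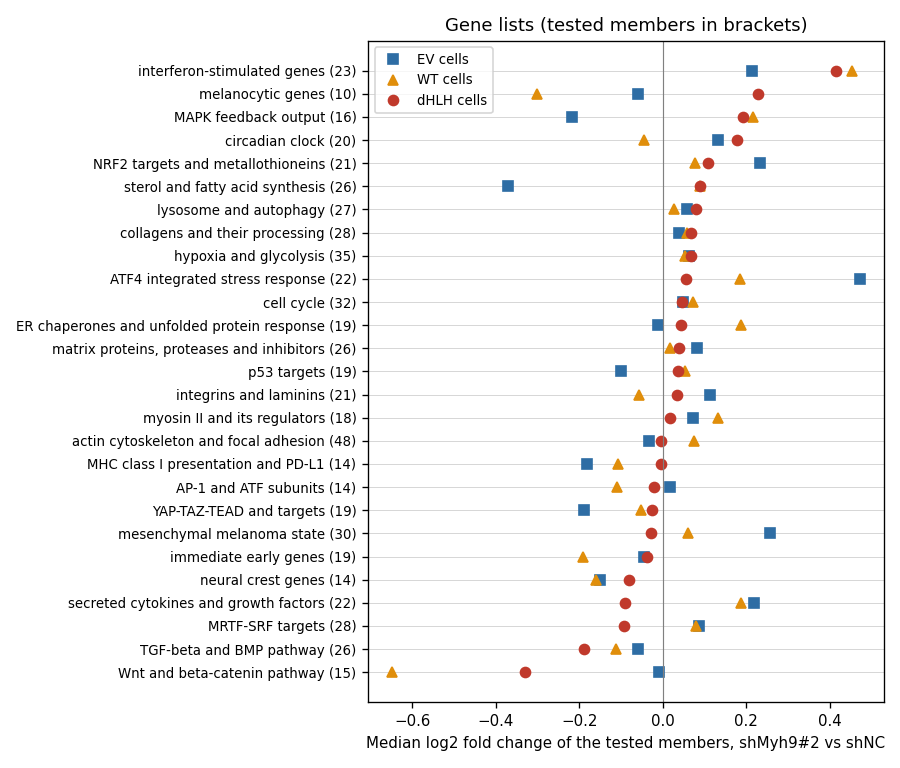
Median log2 fold change with shMyh9#2 (horizontal axis) of the 27 gene lists with at least 10 tested members, in EV, WT and dHLH cells, ordered by dHLH cells. The dHLH medians run from -0.33 for the Wnt and beta-catenin list to 0.41 for the interferon-stimulated genes, and a median carries no test.

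The same hairpin moved more genes in the other populations. In EV cells 988 genes were called (6.65% of those tested, 623 or 4.2% higher and 365 or 2.46% lower) and in WT cells 707 (4.76%, 349 or 2.35% higher and 358 or 2.41% lower), where each comparison used its own shNC libraries. Of the 83 genes of the dHLH cells, 60 were called in the same direction in WT cells (72.3% of the dHLH calls and 8.49% of the WT calls) and 0 in the opposite direction, and 79 had the same sign. In EV cells 26 were called in the same direction (31.3% of the dHLH calls and 2.63% of the EV calls), 14 in the opposite direction, and 48 had the same sign. Over the genes called higher in WT cells, the median change in dHLH cells was 0.35 beside 0.88 in WT cells themselves, and over those called lower it was -0.29 beside -0.81. Over the genes called in EV cells, the median changes in dHLH cells were 0.042 for those higher in EV cells and 0.011 for those lower, beside 0.94 and -0.77 in EV cells. Genes chosen by their change in 1 population tend to show a larger median there, so these medians do not compare the populations evenly. Over the genes called higher in dHLH cells, the median change was 0.98 in WT cells and 0.33 in EV cells. Over those called lower it was -1.16 and -0.030.

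**Figure D4:**
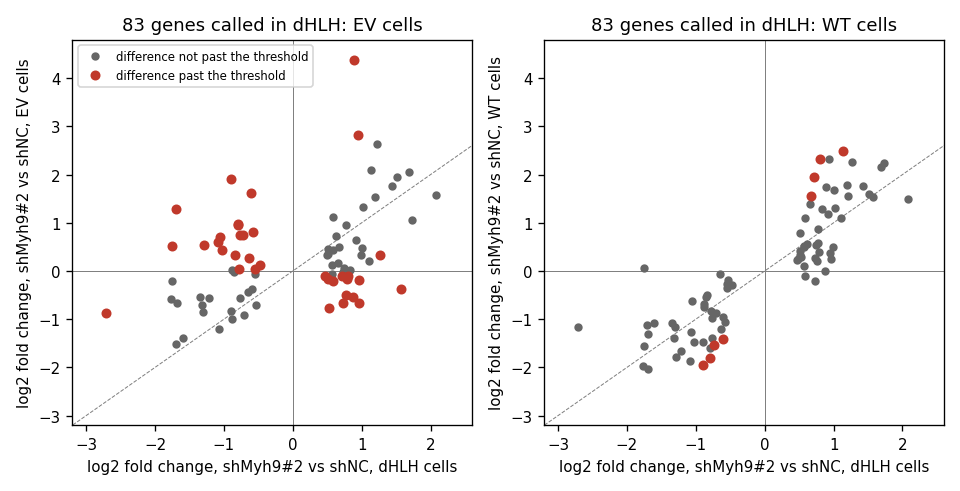
Log2 fold change with shMyh9#2 of the 83 genes called in dHLH cells (horizontal axis) against that in EV cells (left) and WT cells (right), with red points where the difference between the effects passed an adjusted p under 0.05 and a dashed line of equal change. In the WT panel 79 genes have the same sign, and in the EV panel 48 do.

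The test of the difference itself gave 489 genes whose change in dHLH cells differed from that in EV cells (3.29% of those tested, 1.1% higher and 2.2% lower in dHLH cells) and 28 that differed from that in WT cells (0.189%, 0.0808% higher and 0.108% lower). Of the 489, 396 changed by more in EV cells, 409 had opposite signs, and the median size was 0.33 in dHLH cells and 0.80 in EV cells. Of the 28, 27 changed by more in WT cells. The first count was 710 without the first dHLH shMyh9#2 library and 205 to 274 without any of the other 7 libraries compared. The second was 23 without the second dHLH shMyh9#2 library and 3 to 14 without any other. Among the 83 genes, 35 differed from EV cells and 8 from WT cells.

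On the list of matrix proteins, proteases and inhibitors, the change was higher in dHLH than in EV cells for 4 of 26 tested members and lower for 6, and the median difference was 0.17. Sterol and fatty acid genes had 4 of 26 higher and a median of 0.46, and ATF4 targets 3 of 22 lower and a median of -0.45. Bgn was at 7.30 and 4.89 CPM in EV shNC cells and 128 and 125 CPM in EV shMyh9#2 cells, and the rise in dHLH cells differed by -3.49 on the log2 scale (adjusted p = 1.97e-07). Col1a1 went from 1.79 and 2.07 CPM to 17.5 and 23.7 CPM in EV cells, beside no call in dHLH cells, and the difference was -3.02 (adjusted p = 4.4e-07). Ankrd1, a target of YAP, was at 4.79 and 4.57 CPM in EV shNC cells and 26.1 and 24.1 CPM with the hairpin, while both dHLH shMyh9#2 libraries were below both dHLH shNC libraries (difference -2.86, adjusted p = 9.58e-07). On the mesenchymal list, 8 of 30 tested members had a lower change in dHLH than in EV cells and 1 a higher one, Tnc, with a median difference of -0.44. Among the 8 were Sox9, Col1a1, Snai2, a transcription factor of the mesenchymal transition, and Fn1, fibronectin. Snai2 had 86.4 and 81.8 CPM with dHLH shNC and 79.7 and 88.8 CPM with dHLH shMyh9#2, and Fn1 581 and 620 against 576 and 566 CPM. Snai2 and Fn1, with Tgfb1i1, a focal adhesion adaptor, were named after their values were seen. Tgfb1i1 had 63.7 and 64.3 CPM with shNC and 63.4 and 62.6 CPM with shMyh9#2, and its change differed from that in EV cells by -2.09 (adjusted p = 0.00014).

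The 14 genes called in opposite directions in dHLH and EV cells were all past the test of the difference. Of these, 9 fell in dHLH cells and rose in EV cells, and all 9 were called lower in WT cells too. They were Ptgs1, Ptchd1, Fstl1, Pkp1, Htra1, Hipk2, Timp3, Cyp26b1 and Sorbs2, of which Timp3 alone follows the naming rule. Fstl1, a secreted follistatin-like glycoprotein, was at 229 and 242 CPM in dHLH shNC cells and 138 and 117 CPM in dHLH shMyh9#2 cells. In EV cells it went from 13.8 and 15.8 to 56.7 and 55.1 CPM, and in WT cells from 160 and 186 to 43.0 and 46.9 CPM. Cyp26b1, which degrades retinoic acid, was at 570 and 607 CPM in dHLH shNC cells and 417 and 354 CPM with the hairpin, at 80.4 and 91.8 against 263 and 262 CPM in EV cells, and at 375 and 444 against 157 and 149 CPM in WT cells. For these 2 genes the changes in dHLH and EV cells differed by -2.81 and -2.22 (adjusted p = 1.57e-07 and 2.94e-07). All 9 genes had higher levels in both dHLH shNC libraries than in both EV shNC libraries. The other 5 genes, Lama4, Cst6, H1f0, Gm40849 and 1700120C14Rik, rose in dHLH cells and fell in EV cells, H1f0 was called higher in WT cells too, and all 5 had lower levels in dHLH shNC than in EV shNC libraries. Those shNC libraries also enter the changes they are set beside, so the choice of these genes favors such levels. The share of all tested genes with such levels was not computed, so these counts are a description only.

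**Figure D5:**
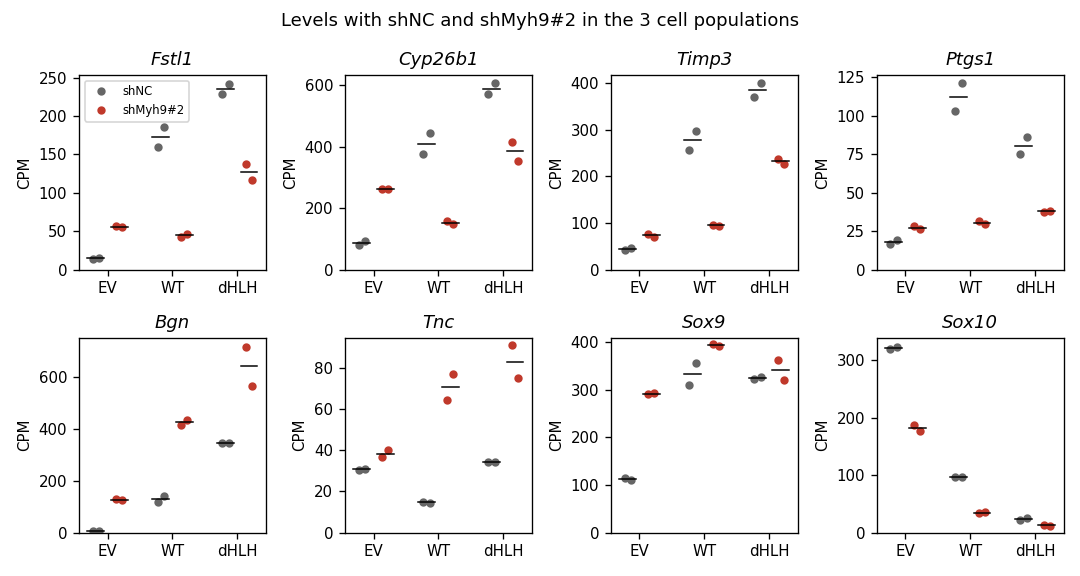
Levels in CPM (vertical axes, from 0) of 8 genes in EV, WT and dHLH cells with shNC (grey) and shMyh9#2 (red), with a point per library and a line at the mean of the 2 libraries. Fstl1, Cyp26b1, Timp3 and Ptgs1 rise with the hairpin in EV cells and fall in WT and dHLH cells, while Sox10 falls in all 3 populations.

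A set of 23 genes was called in the same direction in all 3 populations, 15 higher and 8 lower. It held Myh9, Sox10, Ccl5, Smoc2, Mapk10, Arhgdib, Ly6c1, Hcfc1r1, Laptm5, Bgn, Ecel1, Adamts1 and Fmn1 among the genes described above. Ordered by the estimates alone, 12 of the 23 changed least in dHLH cells and 1, Fmn1, changed most there. For Fmn1 the difference passed the threshold against EV cells (-1.85, adjusted p = 0.041) but not against WT cells (-1.56, adjusted p = 0.35). Another 16 genes were called in dHLH cells and in neither other population, among them Inhbb, Nanos1, Gpnmb and Slc2a3. The difference from EV cells passed the threshold for 6 of the 16 and the difference from WT cells for none of them by edgeR, so these 16 were not shown to be particular to dHLH cells. The change of Inhbb was lower than that in EV cells by 2.98 on the log2 scale (adjusted p = 0.0037) and than that in WT cells by 0.58 (adjusted p = 0.80). For Nanos1 it was lower by 2.26 (adjusted p = 0.010) and by 1.82 (adjusted p = 0.15), so neither gene passed against WT cells.

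The genes with the largest differences from EV cells mostly changed in EV cells. Camk1g, a calmodulin-dependent kinase, was at 7.48 and 9.85 CPM with dHLH shNC and 8.26 and 6.09 CPM with dHLH shMyh9#2, and at no more than 0.109 CPM in EV shNC cells against 2.18 and 3.27 CPM in EV shMyh9#2 cells. Pced1b, Mmp9, Klhdc8a and Nlrp2 completed the 5 named in that direction, with 1.85 to 11.9 CPM in the dHLH libraries. Bace2, Prex1, Gm16222, Pou3f1 and Bag2 were the 5 in the other direction, all at 0.876 to 11.6 CPM in the dHLH libraries. Against WT cells, Adgrl4, an adhesion receptor, stood out, at 51.2 and 58.9 CPM with dHLH shNC and 96.8 and 73.1 CPM with dHLH shMyh9#2. It went from 1.59 and 2.65 CPM to 23.8 and 28.1 CPM in WT cells, and the changes differed by -2.96 (adjusted p = 0.00043). Clmp, a cell adhesion molecule, was at 34.3 and 33.2 against 50.6 and 39.9 CPM in dHLH cells and fell from 36.6 and 38.4 to 14.98 and 14.8 CPM in WT cells (difference 1.74, adjusted p = 0.00061). The other genes named there were Eid2, Plpp2, Pou3f1 and Ppfibp2 with a higher change in dHLH cells and Cacnb2, Fam129a, Tnfrsf9 and Mbnl3 with a lower one.

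The hairpins shMyh9#2 and shMyh9#4 were compared directly within dHLH cells, because both share the shNC libraries. There 2482 genes differed (16.7%), 1469 (9.89%) higher and 1013 (6.82%) lower with shMyh9#2. Against shNC, shMyh9#4 moved 15.1% of the genes tested, 6.28% higher and 8.86% lower. The count was 321 without the second shMyh9#2 library and 279 without the second shMyh9#4 library. Myh9 was lower with shMyh9#2 by 1.27 on the log2 scale (standard error 0.096, adjusted p = 5.96e-07). The 5 genes named as higher, Gm26377, Rps12-ps3, Gm4737, Zfp97 and Fbxl14, were at 0 in both shMyh9#4 libraries. Of these, Rps12-ps3 carries the name of a ribosomal protein pseudogene, and Gm26377 is annotated as a miRNA and overlaps Eef1a1 on the same strand. Reads of such genes may be shared with near-identical copies or overlapping genes, which was not tested. The 5 named as lower, Gm24924, Rnf144a, Gm44436, Srgap1 and Sap18b, were at 0 to 8.90 CPM with shMyh9#2 and 3.06 to 45.3 CPM with shMyh9#4. Set side by side, the log2 fold changes against shNC were 2.08 with shMyh9#2 and 1.44 with shMyh9#4 for Ptges, 1.73 and 0.052 for Ccl5, 1.26 and 0.70 for Tnc, -1.31 and 1.32 for Ecel1, and -0.90 and 0.92 for Sox10.

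The promoters of the called genes were searched for 3 motifs, since the study asked about Bmal1, AP-1 and SRF. RefSeq promoters of GRCm38.p6, 250 bases before to 50 after the start, were matched by symbol for 26 of the 44 genes that rose and 30 of the 39 that fell. The CArG box (CC, 6 bases of A or T, GG), which SRF binds, was in 0 of 26 and 0 of 30, beside 1.57% of all 10044 matched promoters and 8 of 25 on the MRTF-SRF list. TGANTCA, the AP-1 motif, was in 3 of 26 (11.5%) and 1 of 30 (3.33%) beside 6.45% of all. CACGTG, the E-box that Bmal1 binds with Clock, was in 2 of 26 (7.69%) and 2 of 30 (6.67%) beside 11.7% of all. Both strands were searched. A match is a description of letters and not of binding. The AP-1 matches are shown because they are the complete set among the called genes, from the gene's strand with the motif in capitals, in Chrna1 (211 bases before the start), Ifitm3 (105 before) and Gpnmb (8 after), which rose, and 9930111J21Rik2 (181 before), which fell.
Chrna1, chr2:73580532-73580560, minus strand: tgacaagcctcTGACTCAtgatctatgta
Ifitm3, chr7:141010832-141010860, minus strand: ggaagttccccTGATTCAcaatccttcct
Gpnmb, chr6:49036515-49036543, plus strand: ccaggggcaagTGACTCAtgagcacgagt
9930111J21Rik2, chr11:49051406-49051434, minus strand: aaagtcagtacTGACTCAgtaatagatga
The E-box matches are shown in the same way. Igf2bp3 held 2, 23 bases before and 5 after the start, and Crlf3 held 1, 219 before, and both genes rose. Tle4 (210 before) and Tsr1 (24 after) fell.
Igf2bp3, chr6:49214961-49214988, minus strand: ctgggattcctCACGTGagacgttgatt
Igf2bp3, chr6:49214933-49214960, minus strand: tgtagtttgaaCACGTGgctcattcaaa
Crlf3, chr11:80081194-80081221, minus strand: agagacgtgttCACGTGtttctactcta
Tle4, chr19:14598377-14598404, minus strand: cgccctgtcccCACGTGggcctagcctg
Tsr1, chr11:74898093-74898120, plus strand: cacttggtgcaCACGTGgactgcagaat
Chrna1, a subunit of the muscle acetylcholine receptor, had 19.1 and 21.1 CPM with shNC and 32.4 and 35.9 CPM with shMyh9#2. Igf2bp3, a protein that binds mRNA, had 16.8 and 16.8 CPM with shNC and 36.2 and 27.9 CPM with shMyh9#2.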

How the data were processed

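The libraries were made by the authors with the QuantSeq FWD kit and sequenced as reads of 75 bp. The authors used bowtie2 and the mm10 genome, and RSEM gave an estimated count for each Ensembl gene, which the authors deposited as whole-number counts, without normalization, for 51789 genes in 40 libraries. The Ensembl release and the strand setting are not given in the sources used here. All columns of the count table were used. Samples were grouped by their labels, and gene symbols and positions were taken from GENCODE M21 (GRCm38).

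In R 4.3.3, the 18 libraries of the hairpin experiment entered 1 fit in edgeR 4.0.16 (TMM, filterByExpr, quasi-likelihood F test, Benjamini-Hochberg adjusted p under 0.05), so that groups share 1 estimate of the spread. The fit of the dHLH comparison was tested on simulated data. The simulation gave every library the same spread per gene, so it does not cover the wider spread of the shMyh9#2 pair. With 2 libraries against 2, a two-sided exact permutation test cannot go below p = 0.333, so none was run. Genes were named by rule as Myh9, Arntl, Sox9 and Sox10, the 10 largest changes in each direction whose libraries averaged 10 counts or more and whose groups did not overlap, the 2 leading calls of each list in each direction or else the member with the smallest p, and the 5 largest differences in each direction of the other comparisons. Pseudogenes by annotation were passed over. The comparison and the 31 gene lists were chosen with earlier results of these data known. Alternatives were DESeq2's size factors, DESeq2 1.42.0, other count filters, the compared libraries alone, all 40 libraries, the replicate number as a block, a size limit of 1 on the log2 scale, and each library left out. Depth ranged from 3643332 to 17485144 counts per library, and genes at low CPM are the least precise.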

Additional observations from a re-analysis of the deposited data

Results flagged for a closer look

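The change with shMyh9#2 differed between dHLH and EV cells, by the test of the difference in edgeR at a Benjamini-Hochberg adjusted p under 0.05, for 31 of the named genes, and the values below are the log2 change in dHLH cells minus that in EV cells. It was higher in dHLH cells for Grik1 (1.95), Tnc (0.94), Ptk2 (0.69), Lama4 (1.31), Pou3f1 (2.37) and Plpp2 (2.08). It was lower in dHLH cells for Sox9 (-1.30), Fmn1 (-1.85), Nanos1 (-2.26), Inhbb (-2.98), Col1a1 (-3.02), Bgn (-3.49), Timp3 (-1.47), E2f2 (-0.91), Ankrd1 (-2.86), Gstm1 (-0.96), Inhba (-0.95), Tcf7l2 (-0.91) and Clmp (-0.90). Genes at low counts in some of these libraries gave Bace2 (2.67), Prex1 (2.66), Gm16222 (2.63), Bag2 (2.17), Pced1b (-6.41), Mmp9 (-6.24), Klhdc8a (-5.93), Nlrp2 (-5.86), Camk1g (-5.57), Adgrl4 (-3.15), Tnfrsf9 (-3.72) and Sap18b (-4.49), and the size of these depends on the prior count of the fit where a group is near 0. Low counts in the dHLH libraries also held for some genes above, such as Pou3f1 (6 to 24 counts), Plpp2 (11 to 72), Fmn1 (3 to 65) and Nanos1 (9 to 84).

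The change differed between dHLH and WT cells for 13 of the named genes. It was higher in dHLH cells for Timp3 (0.82), Pou3f1 (2.33), Eid2 (3.66), Plpp2 (2.78), Clmp (1.74) and Ppfibp2 (1.37). It was lower in dHLH cells for Laptm5 (-1.34), Col1a1 (-0.83), Adgrl4 (-2.96), Cacnb2 (-2.79), Fam129a (-2.51), Tnfrsf9 (-2.51) and Mbnl3 (-1.75). Eid2 had at most 2.07 CPM in the dHLH libraries.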

How the results depend on the processing

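The change of Myh9 in dHLH cells kept its direction and its side of the threshold under every alternative (log2 fold change -1.76 to -1.63). For the 83 genes changed in dHLH cells, the count was 154 with DESeq2, 269 with no filter on low counts, 30 with a log2 fold change of at least 1, and 1 with only the 4 libraries compared, where fewer libraries set the spread, and 12 to 29 with 1 library left out. The 489 differences from EV cells became 950 with no filter, 287 at a size of at least 1 and 205 to 710 with 1 library left out. The 28 differences from WT cells became 70 with DESeq2, 141 with no filter, 18 with only the libraries compared and 3 to 23 with 1 left out. The 2482 differences from shMyh9#4 became 672 with only the libraries compared, 871 at a size of at least 1 and 279 to 2852 with 1 left out. The cause of these shifts was not tested. With each library left out, Sox9 ran from -0.015 to 0.15, Pecam1 from -0.43 to 0.074 and Krt10 from -1.03 to 0.60, and these were the genes whose sign turned.

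The replicate numbers are shared between groups, but samples with the same number did not deviate together: the correlation was -0.037 between dHLH shNC and dHLH shMyh9#2, and 2 of 36 pairs of groups exceeded 0.1. With the replicate number as a block, the 4 counts were 73, 432, 25 and 2356. With the block Arhgdib and Slc2a3 no longer passed the threshold (adjusted p = 0.055 for both) and changed no other call of a named gene in dHLH cells.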

Other observations

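The levels of some genes lay far apart within the shMyh9#2 pair of dHLH cells. Gm26377 was at 123 CPM in the first library and 821 CPM in the second, beside 500 and 381 CPM with shNC. Rps12-ps3 was at 0 and 124 CPM, beside 20.6 and 8.10 CPM with shNC, and Sap18b at 8.90 and 0 CPM, beside 30.9 and 8.90 CPM. Xaf1, an interferon-stimulated gene, was at 17.2 and 44.0 CPM, beside 20.9 and 20.7 CPM with shNC. Xaf1 was chosen after its values were seen.

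On the secreted side, Cxcl10, a chemokine of the interferon response, was at 1.48 and 1.11 CPM with shNC and 4.87 and 4.31 CPM with shMyh9#2 without passing the threshold by edgeR (adjusted p = 0.16). Cxcl10 was chosen after its values were seen.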
